A study of Mus musculus with 25 samples.

Results

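The N1/p300 list holds the genomic regions that split DamID (SpDamID) assigned to Notch1 together with p300 in mK4 cells, a mouse line derived from embryonic kidney mesenchyme. In SpDamID the enzyme Dam, which methylates adenine in GATC, is split into a pair of inactive pieces, each fused to another protein, and DNA is marked where those proteins meet. The tested libraries carry N1-D with p300-AM-Ert2 and number 3, and they were set against 3 DAM libraries. All of these libraries are labelled mK4 cells of strain CD1, and the labels give no ligand or drug treatment. The Ert2 part of the fusion is, by its name, a tamoxifen-responsive estrogen receptor domain. Members were all regions of this list on chromosomes 1 to 19 and X. There were 22358 of them, 23.2% of the 96405 distinct fragments found in the 6 SpDamID lists of the series, a fragment being a stretch with the same pair of ends in each list that holds it. The other SpDamID lists come from N1-D with RBP-AM-Ert2 or MAML-AM-Ert2 (3 libraries each) or N1-AM-Ert2 (2 libraries), and from Mef2c-D with MAML-AM-Ert2 or p300-AM-Ert2 (1 library each), all in mK4 cells. Open chromatin was mapped by FAIRE, which recovers DNA that stays free of cross-linked protein, in cells labelled N1wt, and N1 by ChIP on a myc tag. The lists were matched to the complexes by the initials of their proteins.

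Notch1 is a cell surface receptor whose intracellular part is cut free on ligand binding and enters the nucleus. There it joins RBP, a DNA-binding protein, and MAML, a co-activator, and the assembled complex recruits p300. The histone acetyltransferase p300 acts at many active enhancers and with many transcription factors, Mef2c among them. In the kidney, Notch signalling is known for its part in nephron patterning.

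Each list is 1 set of values for its pooled libraries. No spread between replicates could be given and no difference between groups was tested, so values of different lists or classes stand side by side as descriptions. The 95% intervals below are exact Clopper-Pearson intervals, cover counting error only and are too narrow where neighbouring regions share an open region. Depth per library is unknown. All SpDamID lists share the DAM libraries and were compared on that basis. Coordinates are of build mm9, and no gene annotation of that build was used, so regions are given by position without a gene name.

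The N1/p300 regions were mostly short. Their median length was 566 bp, from a 5th percentile of 336 bp to a 95th percentile of 1161 bp, and together they covered 15.1 Mb, or 0.584% of the span of the lists. The deposited score of the complex over Dam, a whole number with its scale not given in the sources used here, ran from 1 to 870 with a median of 342 and quartiles of 184 and 485. At the lower edge of the list 38 regions had a score of 1 and 191 a score of 10 or less. The first of these by position lay on chromosome 1 from 7626522 to 7627088, in no other list and in no FAIRE or ChIP region. No region was left out for a low score.

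N1/p300 regions were spread over all 20 chromosomes used, at 8.67 regions per Mb of the listed span. Total FAIRE regions numbered 7.50 per Mb and the SpDamID fragments outside the N1/p300 list 28.7 per Mb. The density was highest on chromosome 19, with 14.7 regions per Mb, followed by chromosome 11 with 13.3 and chromosome 8 with 12.8. It was lowest on the X chromosome, with 2.62 per Mb, and next lowest on chromosome 14, with 5.87. Chromosomes 19 and 11 were also the densest in total FAIRE, with 13.4 and 13.1 regions per Mb, and the X chromosome the sparsest, with 2.23. Chromosome 15 had 11.4 N1/p300 regions per Mb beside 7.74 FAIRE regions per Mb, the widest gap between these densities. The X chromosome held 1.91% of the N1/p300 regions, 3.06% of the other SpDamID fragments and 1.89% of the total FAIRE regions. Of all SpDamID fragments on X, 15.9% were in the N1/p300 list, against 21.6 to 26.1% on the autosomes.

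**Figure D1:**
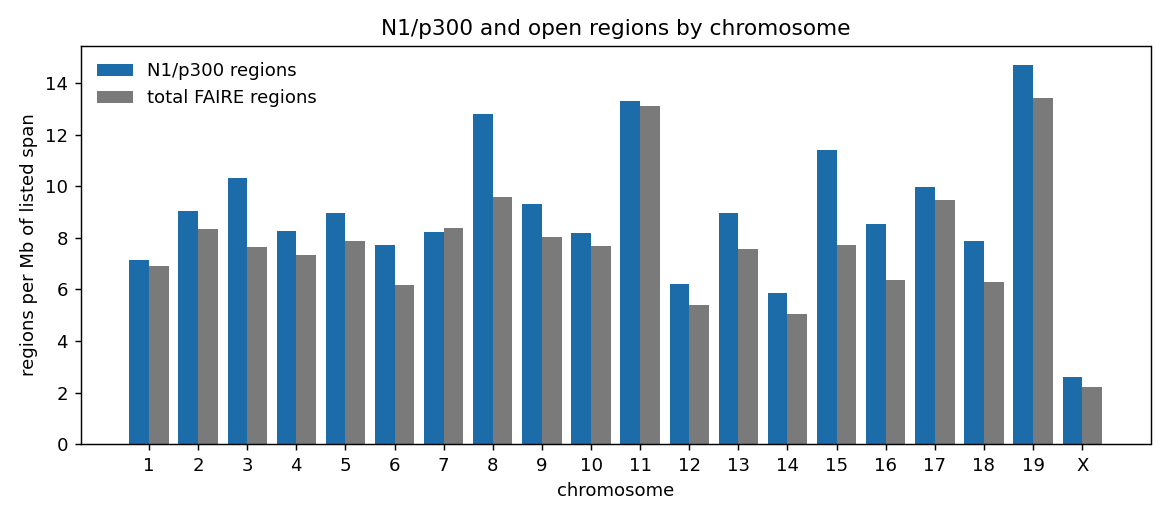
Number of regions per Mb of listed span (y axis) on each chromosome (x axis) for N1/p300 regions (blue) and total FAIRE regions (grey). Chromosome 19 stands highest for both, at 14.7 and 13.4 per Mb, and X lowest, at 2.62 and 2.23.

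Regions lay close together along the chromosomes. The median gap between neighbours was 22394 bp, but 22.8% of the 22338 neighbouring pairs were at most 1 kb apart, and 2539 pairs (11.4%) abutted with no base between them. Counted by region, 8690 (38.9%, 95% interval 38.2 to 39.5%) had another N1/p300 region within 1 kb. The same share was 28.4% in the N1/MAML list and 31.7% in Mef2c/p300. It was higher in N1/RBP (44.1%), N1/N1 (44.2%) and Mef2c/MAML (45.1%), and the lists also differ in size. By 1 Mb windows, the 343 windows with 20 or more regions held 43.3% of the list. The fullest window, on chromosome 15 from 12000001 to 13000000, held 76 regions, and those on chromosome 8 from 124000001 and from 126000001 held 75 and 70.

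Runs of abutting fragments were found in open chromatin more often than single fragments. Of the 17668 regions that abutted no other, 33.1% (32.4 to 33.8%) overlapped total FAIRE and 5.34% (5.01 to 5.68%) overlapped Notch-dependent FAIRE. In runs of 2 the shares were 52.2 and 10.1%, and in runs of 3 they were 65.5 and 15.6%. In runs of 4 to 6 they were 64.0 and 9.62%, over 239 regions. Median scores were 322 for single fragments, 412 in runs of 2, 454 in runs of 3 and 474 in runs of 4 to 6. There were 3 runs of 6. The run on chromosome 19 from 9056959 to 9059608 had scores of 330, 674, 503, 169, 435 and 409 in order, and all 6 regions lay in total FAIRE and in N1/MAML and Mef2c/MAML. Its peak fragment, 9057317 to 9058011, was held by all 6 lists. The run on chromosome 16 from 49936324 to 49940206 scored 182, 645, 121, 360, 535 and 565, with the last 2 regions in Notch-dependent FAIRE. The run on chromosome 8 from 122860326 to 122863660 scored 560, 608, 567, 262, 280 and 224, and 1 of its regions lay in total FAIRE.

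With gaps of up to 10 kb bridged, the list formed 13637 clusters, of which 9065 were lone regions (40.5% of the list). The 501 clusters of 5 or more regions held 3282 regions (14.7%) and had a median span of 13.4 kb. Lone regions overlapped total FAIRE in 26.5% (25.6 to 27.5%) of cases, regions in clusters of 2 in 39.5%, in clusters of 3 to 4 in 46.2% and in clusters of 5 to 9 in 55.0% (53.1 to 56.8%). Clusters of 10 or more held 494 regions, and 45.1% (40.7 to 49.6%) of them overlapped total FAIRE. Without the 2 largest clusters this share was 50.1% of 437 regions. Notch-dependent FAIRE held 3.98% of lone regions and 12.3% (11.1 to 13.6%) of those in clusters of 5 to 9. The share of regions in no other SpDamID list ran the other way, at 25.8% of lone regions and 8.30% in clusters of 10 or more.

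**Figure D2:**
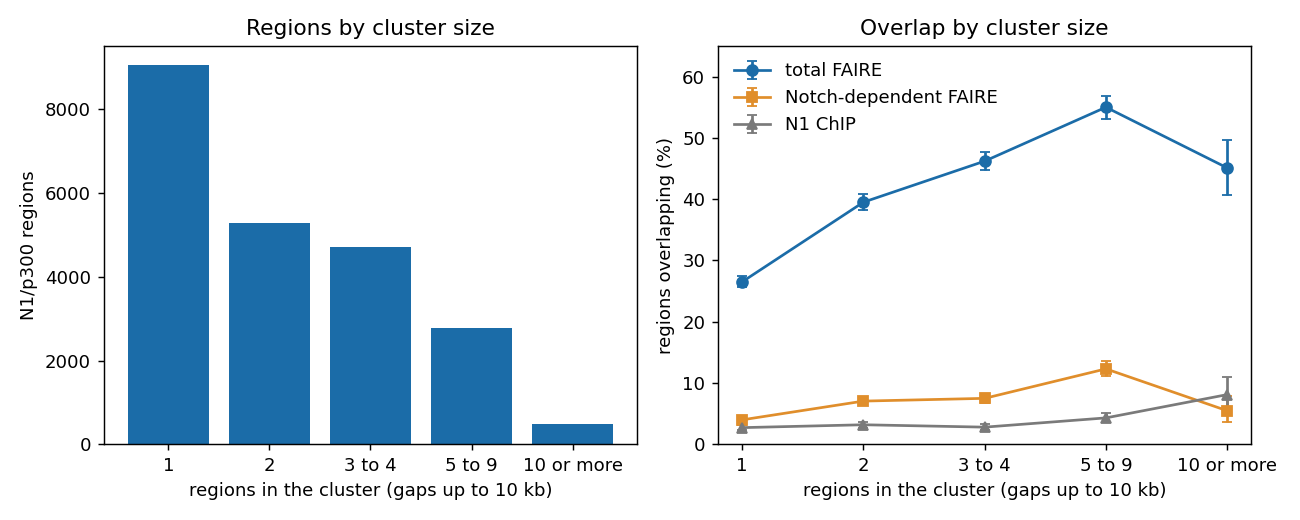
Left, number of N1/p300 regions (y axis) by the number of regions in their cluster (x axis). Right, share of these regions in percent (y axis) that overlapped total FAIRE (circles), Notch-dependent FAIRE (squares) or N1 ChIP (triangles), with exact 95% intervals. Total FAIRE rises to 55.0% in clusters of 5 to 9 and is 45.1% in clusters of 10 or more.

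The highest scores of the list came from a single place. All 10 regions of highest score, 17 of the highest 20 and 20 of the highest 50 lay in a stretch of 52.0 kb on chromosome 15, from 81430389 to 81482435. The stretch held 24 N1/p300 regions with scores from 266 to 870 and a median of 844, and 0 regions elsewhere scored that high. Its leading regions were 81430389 to 81432018 with a score of 870, 81480119 to 81482435 with 869 and 81469738 to 81470353 with 862. The second largest cluster of the list by number, this stretch overlapped 0 total FAIRE, 0 Notch-dependent FAIRE and 0 ChIP regions. Of the 24 regions, 23 were also in Mef2c/p300, with scores from 3 to 849 and a median of 799, and the N1/p300 score was the higher one in all 23, beside 4457 of all 7017 regions shared with Mef2c/p300. The stretch was singled out for its N1/p300 scores, so this count is a description. The lists of Mef2c/MAML, N1/N1, N1/MAML and N1/RBP had 0 regions inside the stretch. Of the 6 SpDamID lists it was thus held by the 2 whose cells carry the p300 fusion, and the part of DNA from the fusion construct in these scores was not tested. Whether the stretch holds a gene of one of the fused proteins was not examined, since no mm9 annotation was used.

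**Figure D3:**
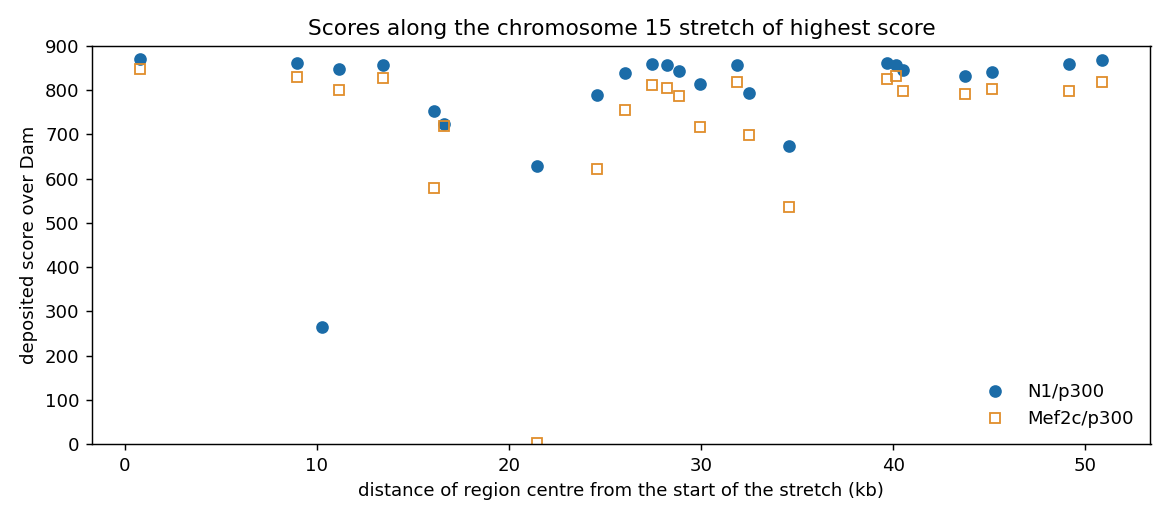
Deposited score over Dam (y axis) of the 24 N1/p300 regions in the chromosome 15 stretch (filled circles) and of the 23 of them that are in Mef2c/p300 (open squares), by distance of the region centre from the start of the stretch in kb (x axis). N1/p300 scores have a median of 844 and a lowest value of 266, and each of the 23 Mef2c/p300 scores lies below the N1/p300 score of its region.

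A second stretch of high scores, on chromosome 2, was shared with the Notch lists instead. Its 6 regions, from 26315080 to 26321282, scored 421 to 830 for N1/p300. All 6 lay in N1/RBP, N1/MAML and N1/N1 and in Notch-dependent FAIRE, 5 lay in N1 ChIP, 2 in Mef2c/MAML and 0 in Mef2c/p300. The region 26315080 to 26316404 scored 817 in N1/p300, 852 in N1/MAML, 838 in N1/N1 and 833 in N1/RBP. Cells of all 4 N1 lists carry the N1-D fusion, and the part of DNA from that construct in these scores was not tested. The same holds for any introduced N1 DNA in the N1wt cells of the FAIRE lists and in the cells of the myc-tag ChIP. Whether this stretch holds a gene of one of the fused proteins was not examined either, so its scores, FAIRE and ChIP are given as listed and not as binding. These regions gave the 3 highest N1/p300 scores in Notch-dependent FAIRE (830, 817 and 795) and the 3 highest among those in both Notch-dependent FAIRE and ChIP (817, 795 and 751).

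The largest cluster by number was mostly outside total FAIRE, with 4 of its regions in it. It lay on chromosome 8 from 126062773 to 126159392 and held 33 regions with a median score of 293 and a highest score of 704, beside a median of 342 for the whole list. Of these, 27 were nearly equal in length, from 1655 to 1716 bp. Whether reads can be placed uniquely in them was not examined, so they are counted as listed. All 27 were in N1/MAML, at scores of 419 to 696, and 1 was in N1/RBP, while N1/N1 and both Mef2c lists held 0. Total FAIRE overlapped 0 of the 27 and 4 of the other 6, which were 651 bp or shorter. The cluster on chromosome 6 from 52156504 to 52199577 held 18 regions, with 17 in N1/RBP, 18 in N1/N1 and 16 in Mef2c/MAML and with 3 in total FAIRE and 5 in ChIP, where ChIP overlapped 8.10% of all regions in clusters of 10 or more. On chromosome 11, the 15 regions from 96130397 to 96179964 had 12 in N1/RBP and 4 in total FAIRE, and the 17 from 3026347 to 3067343 had 3 in N1/RBP, 10 in Mef2c/p300 and 0 in total FAIRE.

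Fragment length went with list membership and with open chromatin. The 634 N1/p300 regions over 1500 bp (2.84%) overlapped total FAIRE in 12.8% (10.3 to 15.6%) of cases, against 38.5% (37.8 to 39.1%) of the 21724 shorter ones. A longer region has more bases to overlap. Whether reads can be placed uniquely in the long regions was not examined, so these shares stand as listed. Of the long regions 63.6% were in N1/MAML and 12.5% in N1/RBP, against 37.9 and 58.4% of the shorter ones. The 171 regions over 3000 bp were in N1/MAML in 81.3% of cases. Regions held by N1/MAML and by no other list numbered 489, with a median length of 1950 bp. Chromosome 15 held 80 of them and chromosome 8 held 67, of which 26 lay in the chromosome 8 cluster described above. The shortest regions, up to 300 bp, overlapped total FAIRE in 67.5% (62.6 to 72.1%) of 394 cases, and 68.8% were in N1/MAML but 14.2% in N1/RBP and 4.82% in Mef2c/p300. Regions above 1000 and up to 1500 bp had the other pattern, with 68.3% in N1/RBP, 70.9% in N1/N1 and 5.73% in N1/MAML. They overlapped total FAIRE in 42.2% (39.5 to 44.9%) of cases, against 35.5 to 36.2% in the classes between 400 and 1000 bp, so the share did not fall steadily with length. Lengths in the lists themselves differed, with medians of 566 bp in N1/p300, 517 bp in N1/MAML, 667 bp in N1/RBP and 754 bp in N1/N1. The part of fragment length in these list memberships was not tested. The longest member, on X from 166445882 to 166506157, spans 60276 bp and scored 138.

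Open chromatin came from another assay, FAIRE. Total FAIRE overlapped 8434 N1/p300 regions, 37.7% (37.1 to 38.4%), beside 19.3% of all SpDamID fragments and 13.8% of those outside the N1/p300 list. Notch-dependent FAIRE overlapped 1457, 6.52% (6.20 to 6.85%), beside 2.80 and 1.67%. The rule behind the Notch-dependent FAIRE list is not stated in the labels or file headers. The series also has 3 libraries labelled Control FAIRE. Across the other SpDamID lists, which share the DAM libraries, the overlap with Notch-dependent FAIRE ran from 2.72% of Mef2c/p300 regions to 5.34% of N1/MAML regions, and with total FAIRE from 18.2% of Mef2c/p300 to 37.9% of N1/MAML regions. Both FAIRE lists come from cells labelled N1wt, a label that names no SpDamID fusion. The share in total FAIRE was 50% (46.6 to 53.4%) on chromosome 19 and 26.4% (22.3 to 30.8%) on X, and the share in Notch-dependent FAIRE ran from 2.34% on X to 8.68% on chromosome 3.

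Distances gave the same order as overlaps. The centre of a member lay a median of 3013 bp from the centre of the nearest total FAIRE region, against 16410.5 bp for the 74047 SpDamID fragments outside the list. Within 250 bp of a FAIRE centre lay 15.4% of members and 3.55% of the other fragments, and within 1000 bp 38.6 and 14.7%. Members before and after the nearest FAIRE centre were nearly equal in number, 11180 and 11176. The median score was 440.5 for members under 250 bp away, 357 from 500 to 1000 bp, 319.5 from 1000 to 2000 bp and 288 from 100000 bp on. Between 2000 and 100000 bp the medians stayed between 302 and 310. At the far end, 11.3% of members lay 100000 bp or more from a FAIRE centre.

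**Figure D4:**
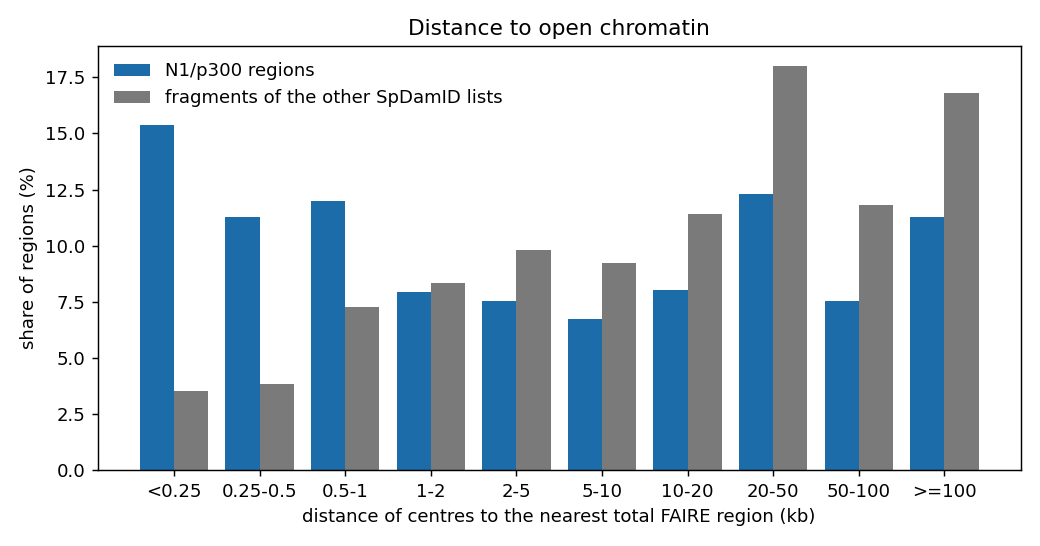
Share of regions in percent (y axis) by distance in kb between their centre and the centre of the nearest total FAIRE region (x axis, unequal bins), for N1/p300 regions (blue) and for the SpDamID fragments outside the N1/p300 list (grey). N1/p300 regions have 15.4% in the bin nearest to the FAIRE centre and the other fragments 3.54%.

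Across the whole list, regions with higher scores were found in open chromatin more often. The list was cut by score into 10 classes of nearly equal size, class 1 with the lowest scores. The share in total FAIRE ran from 25.5% (23.7 to 27.4%) in class 1 through 33.5% in class 5 to 59.5% (57.4 to 61.5%) in class 10, whose scores were 583 to 870. The share in Notch-dependent FAIRE was 3.44% in class 1, 5.33% in class 5 and 14.9% (13.4 to 16.4%) in class 10. The share in N1 ChIP moved less, from 2.54% (1.93 to 3.28%) in class 1 to 4.17% (3.38 to 5.09%) in class 10. For total and for Notch-dependent FAIRE the upper quartile by score exceeded the lower within every quartile of length, with 56.4 against 34.3% in total FAIRE in the shortest quartile and 53.4 against 24.6% in the next to longest. In the shortest quartile the ChIP share was 4.97% in both. In the next quartile of length it was 4.06 against 2.87%. It was 4.17% (3.18 to 5.36%) against 0.972% (0.532 to 1.62%) in the next to longest and 2.37 against 1.31% in the longest. Among the 6070 members in no other N1 list, the upper and lower quartiles had 10.4% (7.66 to 13.7%) and 13.5% (12.2 to 14.9%) in total FAIRE, and these intervals overlap. With 1 other N1 list the shares in total FAIRE were 29.2 and 28.6%. With 2 they were 48.3% (45.6 to 50.9%) and 43.5% (40.8 to 46.3%), and these intervals overlap too. The shares in Notch-dependent FAIRE were 4.73% (2.91 to 7.21%) and 2.81% (2.20 to 3.53%) with no other N1 list, and 8.83% (6.72 to 11.3%) and 4.19% (3.20 to 5.39%) with 1. With 2 other N1 lists they were 11.8 and 4.99%. Among members in all 3 other N1 lists, total FAIRE overlapped 66.5% (64.8 to 68.1%) in the upper quartile and 46.6% (41.6 to 51.6%) in the lower. Notch-dependent FAIRE overlapped 12.9 and 3.01%, in the same order. For total FAIRE, this was the only class by number of other N1 lists whose intervals lay apart.

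**Figure D5:**
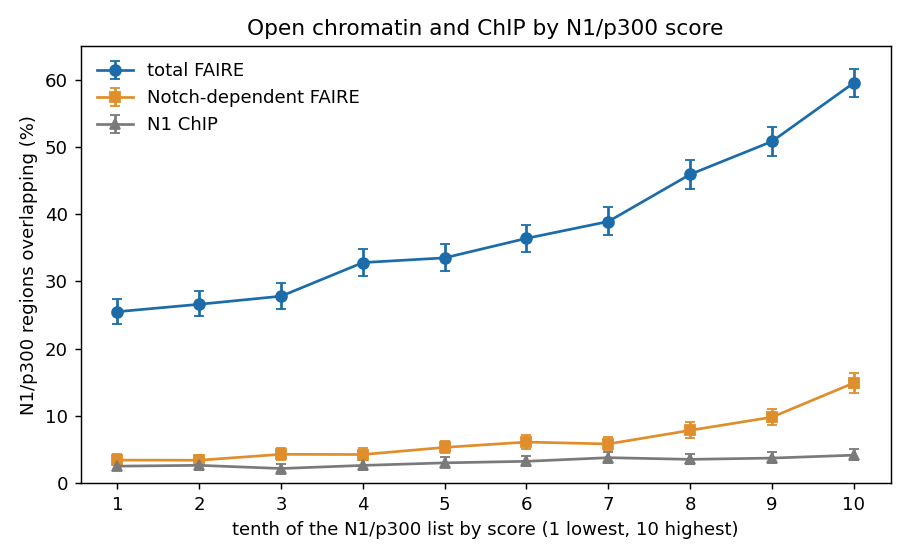
Share of N1/p300 regions in percent (y axis) that overlapped total FAIRE (circles), Notch-dependent FAIRE (squares) or N1 ChIP (triangles) by score class, from the lowest scores (1) to the highest (10) on the x axis, with exact 95% intervals. Total FAIRE runs from 25.5 to 59.5% and ChIP from 2.54 to 4.17%.

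Across all 19353 total FAIRE regions, 33.2% held an N1/p300 region. The list marked 1059 of 2396 Notch-dependent FAIRE regions, 44.2% (42.2 to 46.2%), and 5392 of 17083 other FAIRE regions, those that overlap no Notch-dependent one, 31.6% (30.9 to 32.3%). N1/N1 marked 48.9% of the Notch-dependent and 42.3% of the other FAIRE regions. Mef2c/MAML, a list without N1, marked 43.4 and 40.4%. N1/RBP marked 46.5 and 40.1%, N1/MAML 28.8 and 25.4%, and Mef2c/p300 26.3 and 21.4%. No difference between lists was tested. Of the Notch-dependent regions 13.7% held 2 or more N1/p300 regions, against 8.28% of the others, and the most in 1 open region was 10 for both kinds. Longer open regions were marked more often, but the order of the kinds was the same in every quartile of FAIRE length. Among open regions of up to 719 bp, 31.3% of the Notch-dependent and 18.8% of the others were marked. Above 903 and up to 1217 bp the shares were 53.7 and 32.0%, and above 1217 bp 67.1 and 49.1%. The MACS score of the open region also went with marking, from 24.9% in the lowest quartile of total FAIRE to 42.3% in the highest. The median MACS score was 132 in the Notch-dependent list and 154 for the other regions, which are scored in the total list. Whether the scores of these lists share a scale was not examined, so they are not compared.

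N1 ChIP, another assay of the Notch partner, overlapped 706 N1/p300 regions, 3.16% (2.93 to 3.40%), beside 1.41% of all SpDamID fragments and 0.885% of those outside the list. The share was higher in N1/MAML, at 4.11%. It was 2.74% in N1/RBP, 1.92% in N1/N1, 1.77% in Mef2c/MAML and 0.497% in Mef2c/p300. The ChIP list comes from 1 ChIP library and 1 input library. Its name carries a ratio to input and the word RepeatMasked, and the part of such filters in the ChIP shares was not tested. All 706 shared both ends with a ChIP region, so the ChIP regions found on members use the same fragment ends as the SpDamID lists, and 687 of those ChIP regions were at least 300 bp long. They are 3.17% of the 22306 ChIP regions and 11.7% (10.9 to 12.6%) of the 5858 that are at least 300 bp long. The median deposited ratio of ChIP to input was, among ChIP regions of at least 300 bp, 15.2 for those on members and 14.0 for the rest. Members in ChIP were in total FAIRE in 68.6% of cases but in Notch-dependent FAIRE in 2.27% (1.30 to 3.65%). Members not in ChIP had 36.7 and 6.66%. Of the 16 members in both ChIP and Notch-dependent FAIRE, 5 are those of the chromosome 2 stretch.

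The other SpDamID lists held most of the N1/p300 regions. N1/RBP held 12766 of them, 57.1% (56.4 to 57.7%) of the N1/p300 list and 45.1% of the N1/RBP list, which itself takes 29.3% of all SpDamID fragments. N1/N1 held 12430, 55.6% of N1/p300 and 38.9% of N1/N1, a list of 33.1% of all fragments. N1/MAML held 8629, 38.6% of N1/p300 and 52.2% of N1/MAML, with 17.2% of all fragments. Mef2c/MAML, with 52.3% of all fragments, held 12900, 57.7% of N1/p300 and 25.6% of its own list. Mef2c/p300, with 29.8% of all fragments, held 7017, 31.4% (30.8 to 32.0%) of N1/p300 and 24.4% of its own list. Mef2c/p300 is the other list with p300. Each fragment outside the N1/p300 list lies by definition in at least 1 other list, while 4116 members lie in none. The shares of all fragments are therefore no measure of the sharing to be met without a link between lists, and no conclusion is drawn from 31.4 beside 29.8%. Every list shares the DAM libraries with N1/p300 and lies on the same fragment map.

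Members shared with another list had higher N1/p300 scores. The median N1/p300 score was 407 for members in N1/RBP and 262 for the rest, and the N1/RBP score of the shared members was 439. For members in N1/MAML it was 456, beside an N1/MAML score of 461, and for the rest 273. For members in Mef2c/p300 it was 428, beside a Mef2c/p300 score of 344, and for the rest 305.

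By combination of lists, 4116 members (18.4%) were in no other list, 2904 (13.0%) in all 5 others, and 12172 (54.4%) in at least 1 N1 and 1 Mef2c list. Another 4116 (18.4%) were in an N1 list but no Mef2c list, and 1954 (8.74%) in a Mef2c list but no other N1 list. Members in no other list had a median score of 201 and overlapped total FAIRE in 11.2% (10.2 to 12.2%) of cases, below the 19.3% of all SpDamID fragments. They overlapped Notch-dependent FAIRE in 2.65% (2.18 to 3.19%), beside 2.80%. Those in all 5 other lists had a median score of 528 and shares of 63.5% (61.8 to 65.3%) and 8.99% (7.97 to 10.1%). The highest score in no other list, 762, lay on chromosome 2 from 178435644 to 178436398. Next to it, 178436502 to 178436956 scored 783 and was held by all 3 other N1 lists. Neither lay in FAIRE or ChIP. The next highest scores in no other list were 691 on chromosome 10 from 67190506 to 67191006 and 688 on chromosome 7 from 18800070 to 18800476.

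The region with the highest score in all 6 lists lay on chromosome 5 from 38648903 to 38649395, with scores of 778 in N1/p300, 743 in N1/N1, 614 in N1/MAML, 612 in N1/RBP, 445 in Mef2c/MAML and 403 in Mef2c/p300. It overlapped Notch-dependent FAIRE, as did the third such region, on chromosome 6 from 31038676 to 31039093, with an N1/p300 score of 759. The second, on chromosome 7 from 127895332 to 127895801, scored 768 and overlapped total FAIRE without overlapping a Notch-dependent peak. In the third, the N1/MAML score was 765. These regions were ranked by their N1/p300 score, so its order among the 6 scores is not compared.

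Members were also split by RBP, the DNA-binding part of the Notch complex, and MAML, which recruits p300. The 6707 members in both N1/RBP and N1/MAML overlapped total FAIRE in 56.9% (55.7 to 58.1%) and ChIP in 5.68% (5.14 to 6.26%) of cases. The 6059 in N1/RBP but not N1/MAML had 41.8% in total FAIRE and 2.29% in ChIP, and the 1922 in N1/MAML but not N1/RBP had 39.8 and 4.27%. The 7670 in neither had 17.2% (16.4 to 18.1%) and 1.36%. Median scores of these classes were 484, 322, 353 and 231, and their median lengths 514, 700, 386 and 556 bp. In the whole list, ChIP overlapped 5.08% of members above 300 and up to 400 bp. It overlapped 2.11% of those above 600 and up to 800 bp. The part of length in the ChIP shares of these classes was not tested. The 320 members in all 3 other N1 lists and no Mef2c list had 12.8% (9.35 to 17.0%) in Notch-dependent FAIRE and 8.12% (5.38 to 11.7%) in ChIP, at a median score of 522.

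Members held by both p300 complexes and by no list without p300 were few. There were 352 of them (1.57%), of which 23 lay in the chromosome 15 stretch. Their median score was 263, or 244 without the stretch. Members with a different list as their only other one numbered 489 for N1/MAML, 718 for N1/N1, 741 for N1/RBP and 1138 for Mef2c/MAML. Total FAIRE overlapped 32 of the 352, 9.09% (6.30 to 12.6%), beside 19.3% of all SpDamID fragments and 22.1% of all members in exactly 1 other list. In those 4 classes its share ran from 17.2% for N1/MAML to 28.8% for N1/N1. Notch-dependent FAIRE overlapped 9 of the 352, 2.56% (1.18 to 4.80%), near the 2.80% of all fragments. ChIP overlapped 0, beside 1.41% of all fragments and 0.497% of the Mef2c/p300 list. This 0 allows a share of up to 0.852% by a floor of 3 counts and up to 1.04% by the exact interval, and the Mef2c/p300 share lies below both. Outside the stretch, the highest N1/p300 scores were 620 on chromosome 1 from 61586988 to 61588064, with a Mef2c/p300 score of 35, and 586 on chromosome 8 from 117850924 to 117851681, with a Mef2c/p300 score of 606.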

How the data were processed

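SpDamID, FAIRE and ChIP libraries from mK4 cells were grouped by their titles. Per the labels' protocols, DpnI-cut SpDamID DNA went through ligation-mediated PCR before sonication and sequencing. SpDamID regions carry the authors' deposited score, in whole numbers, and are listed from a confidence of 0.999 against DAM upwards, per the file headers. The name of the N1/p300 list carries the word median. FAIRE scores are from MACS in Galaxy, per the file headers. The deposited ChIP table has no header and holds a signal for ChIP, a signal for input and their ratio, told apart by their quotient. The build is mm9, per the submitters' processing notes, and other tools not given in the sources used here are not named.

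Positions count from 1 and include both ends, so FAIRE starts were raised by 1. Left out were 2 N1/p300 regions on Y, 43 total and 7 Notch-dependent FAIRE regions. Overlap means 1 bp or more, and SpDamID regions of different lists were either identical or apart. Intervals are Clopper-Pearson at 95% (scipy 1.17.1, Python 3.11.15). A count of 0 allows 3 counts of the total. Overlap and interval code was tested on simulated regions.

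The members, lists and classes were chosen with earlier results of these data known. Regions named are those of highest score in the list and in its classes, the 5 largest clusters, the 3 longest runs and the lowest score. The class outside the chromosome 15 stretch, the chromosome 2 stretch as a unit, the longest region and the fullest windows were chosen after their values were seen. Gene starts and sequence motifs were not analysed here, since no mm9 genome or annotation was used.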

Additional observations from a re-analysis of the deposited data

How the results depend on the processing

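No paired analysis was possible because each list pools its libraries and the result comes from no test. For the same reason no library could be left out, and since depth per library is unknown, no limit from depth could be set for a region that a list lacks. Of 119 alternative values for 16 results, 63 stayed inside the interval of the value given above or, for counts, within 1.5 times. These include 16 that could not move, since SpDamID and ChIP regions on members share both ends under any overlap rule, and 16 without the chromosome 15 stretch, which is too few regions to move a share of the list past its interval. The other 31 include all 16 on autosomes only. These leave out just the 428 N1/p300 regions on X, so they too had little room to move. Alternatives near gene starts and for motifs were not run. For the values below that moved, the cause was not tested.

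With N1/p300 regions from the median score up, 11187 regions remained, with a median length of 546 bp, 34.0% with a neighbour within 1 kb and 159 clusters of 5 or more. Of these regions 46.2% lay in total FAIRE, 8.89% in Notch-dependent FAIRE, 3.70% in ChIP, 70.4% in N1/RBP, 54.5% in N1/MAML, 71.1% in N1/N1, 68.8% in Mef2c/MAML and 40.5% in Mef2c/p300. In no other list were 8.93% and in all 5 others 22.3%, and 31.9% of Notch-dependent and 20.1% of other FAIRE regions held one. With regions within 500 bp merged, the median length was 648 bp, and the shares were 35.2% in total FAIRE, 5.88% in Notch-dependent FAIRE, 3.98% in ChIP, 57.9% in N1/RBP, 40.4% in N1/MAML, 59.0% in Mef2c/MAML, 33.7% in Mef2c/p300, 19.4% in no other list and 15.9% in all 5. Members of middle length, between the quartiles, had 35.6% in total FAIRE, 5.37% in Notch-dependent FAIRE, 62.6% in N1/RBP, 37.2% in N1/MAML, 65.4% in Mef2c/MAML, 39.7% in Mef2c/p300 and 18.0% in all 5 others.

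Requiring 50% of the smaller region to overlap gave 30.4% in total and 5.10% in Notch-dependent FAIRE, with 38.0% of Notch-dependent and 26.8% of other FAIRE regions marked. By region centre these were 29.8, 4.91, 31.1 and 18.6%. FAIRE regions from the median MACS score up gave 23.3, 3.90, 51.3 and 36.6%. For this the Notch-dependent list was cut at its own median of 132 and the other FAIRE regions at the median of 157 of the total list. A neighbour lay within 500 bp for 35.1% and within 5 kb for 51.3% of members. Clusters of 5 or more numbered 308 with gaps of up to 5 kb and 798 with gaps of up to 20 kb. Without regions over 1500 bp, an alternative added after the data were seen, the median length was 559 bp and the shares were 38.5% in total FAIRE, 58.4% in N1/RBP, 37.9% in N1/MAML, 56.5% in N1/N1, 59.3% in Mef2c/MAML and 32.2% in Mef2c/p300. In each alternative run for both kinds, Notch-dependent FAIRE regions were marked more often than other FAIRE regions. The cut by MACS score used unlike thresholds for the kinds, so it is no like comparison.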
